A study of Mus musculus with 18 samples.

Results

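The messenger RNA of 8 genes encoding costimulatory and coinhibitory ligands was followed in cultured mouse microglia of 6 genotypes. The genes were Cd86, Cd80, Icosl, Tnfsf9, Cd40, Cd83, Cd274 and Pdcd1lg2, taken as the 8 rows, of 50686 in the deposited table, whose Ensembl identifier maps to those symbols. They were chosen by their part in T-cell costimulation and by their CPM per library across the 6 genotypes, with earlier results on these same counts in view and no threshold on a value. The levels and adjusted p-values below therefore describe these libraries and are no independent support for any pattern.

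Ligands of this kind are carried on the surface of antigen-presenting cells and raise or restrain the response of a T cell that has recognised its antigen. CD80 and CD86 bind CD28, which activates the T cell, and CTLA-4, which restrains it, whereas PD-L1 (Cd274) and PD-L2 (Pdcd1lg2) bind the inhibitory receptor PD-1. Microglia, the resident macrophages of the brain, carry little of these proteins at rest, and CD86, CD40 and PD-L1 are commonly used as signs of their activation, PD-L1 being a well-known target of interferon gamma.

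Each genotype had 3 libraries. The labels give Tbk1+/- with Tak1ΔM/+ and Ripk1D138N/+ (here Tbk1het Tak1het Ripk1het), Tbk1+/- with Tak1ΔM/+ (Tbk1het Tak1het), Tak1ΔM/+ (Tak1het), Tbk1+/- with Ripk1D138N/D138N (Tbk1het Ripk1hom), Tbk1+/- (Tbk1het) and wild type (WT). The kinases TBK1 and TAK1 both hold RIPK1 in check, and D138N is a substitution known to abolish the kinase activity of RIPK1. What the ΔM allele removes, and in which cells, is not given in the sources used here. All mice were C57BL/6, and cells were taken from the forebrain of pups at postnatal day 2. Cultures ran for 7 days, then for another 7 in fresh medium. The labels do not say that the 3 libraries of a group are separate animals or cultures, so p-values measure the spread between libraries. Y-linked transcripts summed to 115.8, 53.6 and 0 CPM in WT. The sums were 0, 45.7 and 0 CPM in the libraries labelled Tbk1het Ripk1hom. In those labelled Tbk1het Tak1het Ripk1het they were 0, 45.7 and 65.9 CPM. The libraries within each of these genotypes are thus not all repeats of the same sample. In the other genotypes, and between libraries alike in these transcripts, the spread may be technical.

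Total counts ranged from 8016559 to 22989116 per library. Levels are in CPM, counts scaled to the size of the library, errors are SD over n = 3 libraries, and a call is an adjusted p under 0.05 in the quasi-likelihood test of edgeR over 13447 genes. Tbk1 itself was 50.5 to 66.0 CPM in the libraries of Tbk1het and Tbk1het Tak1het, against 104 to 149 CPM in WT. It was 107 to 123 CPM in all 3 libraries labelled Tbk1het Tak1het Ripk1het, and 129.8, 54.9 and 131 CPM in the 3 labelled Tbk1het Ripk1hom, so 5 libraries labelled Tbk1+/- were near the WT level and are named here as labelled. Map3k7, which encodes TAK1, was 7.34 to 9.98 CPM in Tak1het and 6.57 to 15.8 CPM in Tbk1het Tak1het, against 10.4 to 19.2 CPM in WT. Ripk1, whose substitution a count cannot show, was 16.2 to 62.0 CPM in the 6 libraries labelled with it, 49.0 to 71.0 CPM in Tbk1het Tak1het and 16.97 to 23.8 CPM in WT. The 10 microglial markers summed to 5766 to 7988 CPM, with Csf1r the highest at a mean of 2209 CPM over the 18 libraries. Of the other cells that carry these ligands, dendritic cells were represented by 10 markers summing to 2.43 to 9.93 CPM (Flt3 and Cd209a at 0 in every library) and B cells by 6 markers summing to 0.0732 to 2.40 CPM (Pax5 at 0). Border macrophages and monocytes, which share many transcripts with microglia, had 8 markers summing to 797 to 1393 CPM.

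The 8 ligand genes spanned a wide range of levels. Per kilobase of exon, the WT mean was 114 ± 13.7 CPM for Cd83, 17.3 ± 1.77 for Cd86, 4.39 ± 1.17 for Cd274 and 3.88 ± 1.81 for Tnfsf9. The rest were lower, at 1.56 ± 0.493 CPM per kilobase for Cd40, 1.18 ± 0.175 for Icosl and 0.780 ± 0.234 for Cd80, and Pdcd1lg2 was at 0. Neighbours in this order differed by less than the larger of their SDs for Cd274 and Tnfsf9 and for Cd40 and Icosl, and by more for the rest. Of the 8 genes, 7 passed the low-count filter and were tested. In the overall test of the 6 genotypes, 2 of these 7 were called, Cd86 (adjusted p = 0.00156) and Cd274 (adjusted p = 0.0117), where 7.59% of all genes tested were called. The call of Cd274 was lost without Tbk1het Tak1het replicate 1 or 2 (edgeR adjusted p = 0.0554 and 0.0627, the range over 27 alternatives being 7.58e-06 to 0.0627). With the mitochondrial share of counts as a covariate, neither Cd86 (edgeR adjusted p = 0.0675) nor Cd274 was called. Cd86 was called in 26 of the 27 alternatives and Cd274 in 24. Tnfsf9 had an adjusted p of 0.142 in edgeR's test, and was called by DESeq2 (adjusted p = 0.0256) and by edgeR without the low-count filter (0.0493) among 27 alternatives. The other 4 lay between 0.637 and 0.928. In bulk RNA, fewer cells expressing a gene and less RNA per cell cannot be told apart, and this holds for every level given here.

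**Figure D1:**
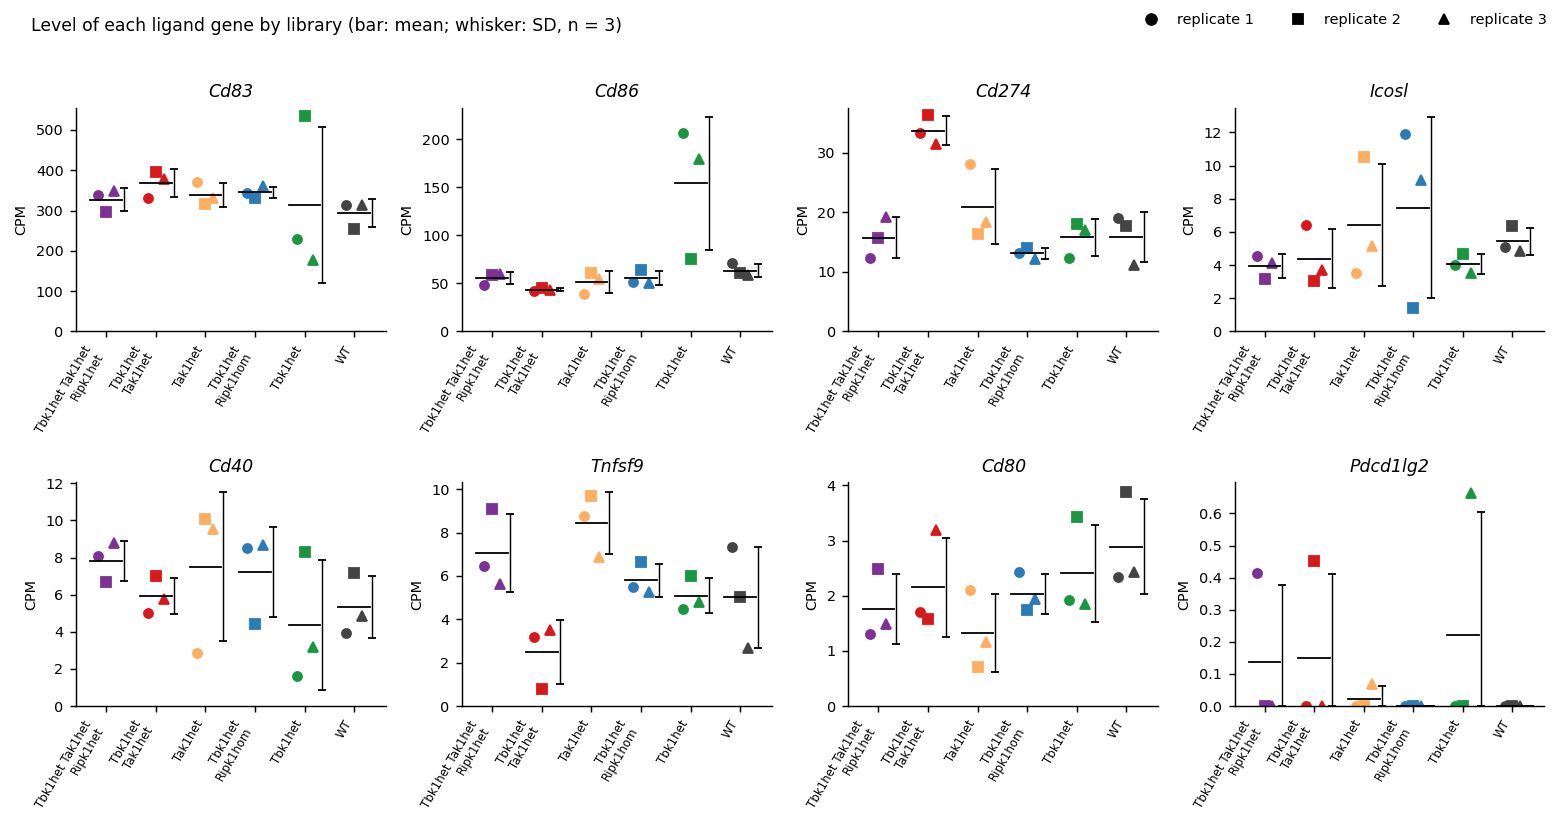
CPM (linear axes from 0, a different scale for each gene) of the 8 ligand genes in every library, by genotype; each point is a library, the horizontal bar is the mean and the whisker is the SD of 3 libraries. The 3 Tbk1het Tak1het libraries sit above all others for Cd274, and Tbk1het holds the 3 highest Cd86 values, with replicate 2 at 75.6 CPM well below the other two.

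Cd274 encodes PD-L1, which binds PD-1 and dampens T cells. It is on chromosome 19 at 29367455 to 29388095 (plus strand, GRCm38). An antisense transcript annotated across it has no row in the table, and its reads, if any, would count under Cd274. The level of Cd274 was 33.3, 36.3 and 31.5 CPM in the 3 Tbk1het Tak1het libraries. It was 28.1, 16.3 and 18.3 CPM in Tak1het, 12.2, 17.99 and 17.1 CPM in Tbk1het, and 19.0, 17.6 and 11.1 CPM in WT. The Tbk1het Tak1het libraries lay above every other library of the series, and the nearest was Tak1het replicate 1. In the libraries labelled Tbk1het Tak1het Ripk1het it was 12.4, 15.7 and 19.2 CPM, and in those labelled Tbk1het Ripk1hom 13.2, 14.01 and 12.1 CPM, both within or near the range of WT. In order of the means, Tbk1het Tak1het (33.7 ± 2.44 CPM) stood first without overlap with the next, Tak1het (20.9 ± 6.30), whose range overlapped that of WT (15.9 ± 4.23). Tbk1het (15.8 ± 3.09), Tbk1het Tak1het Ripk1het (15.8 ± 3.42) and Tbk1het Ripk1hom (13.1 ± 0.945) followed, each overlapping its neighbour.

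Against WT, Cd274 rose in Tbk1het Tak1het by a log2 fold change of 1.08 (SE 0.245, a 2.12-fold higher level), with an adjusted p of 0.0142 by edgeR's quasi-likelihood test. It was the only one of the 7 ligand genes called in this comparison, in which 6.43% of all genes were called. Of the cell-type markers, C1qa of microglia rose too (0.40, edgeR adjusted p = 0.0498), and its part in the result was not tested. The 10 microglial markers had a median log2 fold change of -0.17, with 3 above 0. The call of Cd274 was lost without WT replicate 3, the lowest WT library (log2 fold change 0.87, edgeR adjusted p = 0.0614), and without Tbk1het Tak1het replicate 2 (1.01, adjusted p = 0.0548), with a range of 0.000871 to 0.0656 over the 16 alternatives run. Against Tbk1het, Cd274 rose by 1.09 (SE 0.245, edgeR adjusted p = 0.00606). Against Tak1het it was higher by 0.69 (SE 0.243) without reaching a call (edgeR adjusted p = 0.153). Without Tak1het replicate 1, at 28.1 CPM, that difference was 0.96 and was called (edgeR adjusted p = 0.0421, against 0.0421 to 0.454 over its 16 alternatives). It was the only call among those 16. Leaving out the Tak1het library with the highest Cd274 raises the difference by itself. This call is therefore no support for a difference from Tak1het.

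No call was made for Cd274 in either single genotype against WT. In Tbk1het the log2 fold change of Cd274 against WT was -0.01 (95% interval -0.52 to 0.50) and in Tak1het it was 0.40 (-0.11 to 0.91). The interaction of the Tbk1 and Tak1 alleles, that is the change in Tbk1het Tak1het beyond the sum of the single changes, was 0.70 for Cd274 (SE 0.344) and did not pass (edgeR adjusted p = 0.317). An effect larger than additive was therefore not shown. The libraries labelled Tbk1het Tak1het Ripk1het had less Cd274 than Tbk1het Tak1het, with a log2 fold change of -1.09 (SE 0.245, edgeR adjusted p = 0.0205), the only ligand gene of 7 called there, where 2.56% of all genes were called. The microglial marker Cx3cr1 was higher there (0.79, edgeR adjusted p = 0.0353). The 10 microglial markers had a median of 0.25, with 6 above 0. The call of Cd274 was lost without any one of the 3 Tbk1het Tak1het libraries or without replicate 1 or 2 labelled Tbk1het Tak1het Ripk1het (edgeR adjusted p 0.0513 to 0.0867, the range over 15 alternatives being 0.000983 to 0.0867). Since all 3 libraries labelled Tbk1het Tak1het Ripk1het had Tbk1 near the WT level, their number of Tbk1 alleles and the Ripk1 allele cannot be told apart as sources of this difference.

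PD-L1 transcription rises in response to interferon gamma, and the start-site region of Cd274 is therefore shown with that of its neighbour Pdcd1lg2, which encodes the second PD-1 ligand and begins 22824 bases beyond the end of Cd274. Both run from 250 bases before to 50 bases after the start site, from the RefSeq table for GRCm38.p6, on the plus strand, at chr19:29367188-29367487 for Cd274 and chr19:29410669-29410968 for Pdcd1lg2. Capitals mark a match to GAAANNGAA, a shortened form of the interferon-stimulated response element, on the reverse strand.
Cd274: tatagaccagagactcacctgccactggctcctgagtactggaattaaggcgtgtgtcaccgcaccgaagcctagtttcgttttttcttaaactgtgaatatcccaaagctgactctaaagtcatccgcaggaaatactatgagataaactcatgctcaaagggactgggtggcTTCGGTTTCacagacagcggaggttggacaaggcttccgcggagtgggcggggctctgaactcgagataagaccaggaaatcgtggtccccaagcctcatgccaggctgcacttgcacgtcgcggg
Pdcd1lg2: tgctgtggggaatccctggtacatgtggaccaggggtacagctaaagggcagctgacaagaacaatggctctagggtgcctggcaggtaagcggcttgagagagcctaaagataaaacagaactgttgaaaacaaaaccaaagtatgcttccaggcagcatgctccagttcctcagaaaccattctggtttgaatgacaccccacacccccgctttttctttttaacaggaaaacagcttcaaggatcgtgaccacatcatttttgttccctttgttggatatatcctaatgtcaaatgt

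The marked match spans bases 175 to 183 of the Cd274 window. GAAANNGAA occurs on either strand in 8.56% of the 32851 windows of this length in the table, and it was added to the search after the sequences had been read. The other letters searched on both strands were TTCNNNGAA (the gamma-activated site, 8.30% of windows), TGANTCA (AP-1, 7.81%) and TGATGNAA (an ATF element, 3.97%). None of these was found in the Cd274 window, and none of the 4 in that of Pdcd1lg2. A match of letters is a description and not a binding site. The table held this window for 4 of the 8 genes, the others being Icosl, with no match, and Cd80, with 1 match to TGANTCA.

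Pdcd1lg2 was close to undetectable. It had 22 counts over the 18 libraries, 7 in the library labelled Tbk1het Tak1het Ripk1het replicate 1, 4 in Tbk1het Tak1het replicate 2, 1 in Tak1het replicate 3 and 10 in Tbk1het replicate 3. No WT library held a count, and a floor of 3 counts corresponds to 0.137 to 0.338 CPM per library. Such floors cover counting error only, as the reads carry no molecular identifiers. Pdcd1lg2 was not tested, and no change of it beside the higher Cd274 of Tbk1het Tak1het could be measured at this depth.

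Cd86, on chromosome 16 at 36603869 to 36666081 (minus strand), was the other gene called in the overall test. It encodes the CD28 ligand that antigen-presenting cells carry earlier in their activation than CD80. Its level was 42.0, 45.2 and 43.4 CPM in Tbk1het Tak1het, 38.4, 60.8 and 54.8 CPM in Tak1het, 207, 75.6 and 180.0 CPM in Tbk1het, and 70.8, 60.3 and 59.0 CPM in WT. The Tbk1het libraries were all above WT, but replicate 2 exceeded the highest WT library by little. Cd86 was 48.5, 58.8 and 59.5 CPM in the libraries labelled Tbk1het Tak1het Ripk1het, and in those labelled Tbk1het Ripk1hom it was 51.5, 63.5 and 50.8 CPM. In order of the means, Tbk1het (154 ± 69.4 CPM) was followed without overlap by WT (63.4 ± 6.49), after which each genotype overlapped the next down to Tbk1het Tak1het (43.5 ± 1.61).

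The log2 fold change of Cd86 in Tbk1het against WT was 1.28 (SE 0.256) and was not called, with an adjusted p of 0.0828 by edgeR's quasi-likelihood test. None of the 7 ligand genes was called in this comparison, in which 0.0521% of all genes were. Cd86 was the only one with an unadjusted p under 0.05, and DESeq2 called it (adjusted p = 0.000836). Without Tbk1het replicate 2 the change of Cd86 was 1.61 and was called by edgeR (adjusted p = 6.74e-05), against a range of 2.17e-09 to 0.546 over its 16 alternatives. That leave-out removed the lowest Cd86 of Tbk1het and raised the calls over all genes from 7 to 371.

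Where Tbk1het was the group compared with, Cd86 was called lower. It fell in Tbk1het Tak1het against Tbk1het, with a log2 fold change of -1.83 (SE 0.261, 0.282-fold, edgeR adjusted p = 0.000422). With Cd274 this made 2 of 7 ligand genes called, 1 in each direction, where 14.8% of all genes were called. Markers of cell types were called beside them: P2ry12 (-1.38), Cx3cr1 (-0.64) and Fcrls (-1.78) of microglia and Lyve1 (-6.34) of border macrophages fell (edgeR adjusted p 0.00328 to 0.0317). The 10 microglial markers had a median of -0.21, with 4 above 0. The 6 markers tested of border macrophages and monocytes had a median of -0.57, with 2 above 0. The part of these cells in the levels of Cd86 and Cd274 was not tested. In the libraries labelled Tbk1het Ripk1hom, Cd86 fell against Tbk1het, with a log2 fold change of -1.48 (SE 0.257, edgeR adjusted p = 0.0221), the only ligand gene of 7 called there, where 0.535% of all genes were called. That call was lost without Tbk1het replicate 1 or 3 (edgeR adjusted p = 0.110 and 0.109) and without replicate 1 or 3 labelled Tbk1het Ripk1hom (0.138 and 0.118). It was also lost when both libraries labelled Tbk1het Ripk1hom with Tbk1 near the WT level were left out with the 3 labelled Tbk1het Tak1het Ripk1het (-1.27, edgeR adjusted p = 0.543, the highest of 16 alternatives that began at 3.01e-13). All these comparisons share the 3 Tbk1het libraries, so they are not separate evidence. Y-linked transcripts summed to 0, 45.7 and 0 CPM in the libraries labelled Tbk1het Ripk1hom, and to 62.3, 207 and 126 CPM in Tbk1het. The libraries at 0 were those with Tbk1 near the WT level, and the part of sex in Cd86 was not tested. Against WT, Cd86 in Tbk1het Tak1het had a log2 fold change of -0.54 without a call (edgeR adjusted p = 0.241).

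The interaction of Tbk1het and Tak1het was called for Cd86, at -1.52 on the log2 scale (SE 0.361, edgeR adjusted p = 0.0379), and for none of the other 6 ligand genes tested, where 1.76% of all genes were called. The change in Tbk1het Tak1het against WT was thus lower than the sum of the changes of Tbk1het, which was upward, and of Tak1het (-0.31). Of the 12 libraries compared, the call held without Tak1het replicate 1 or Tbk1het replicate 2 and was lost without any one of the other 10 (edgeR adjusted p 0.0630 to 0.116, the range over 22 alternatives being 6.29e-07 to 0.366). Y-linked transcripts summed to 2.78, 0 and 0 CPM in Tak1het and 62.3, 207 and 126 CPM in Tbk1het, and the part of sex was not tested.

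**Figure D2:**
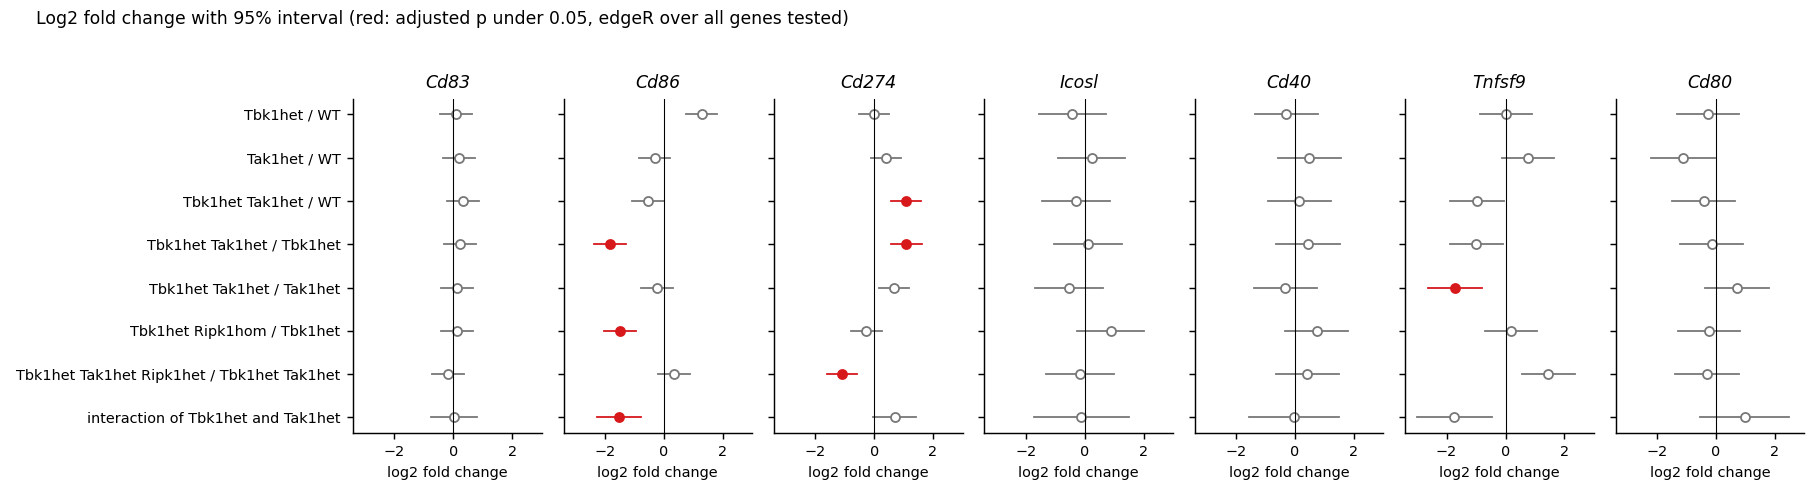
Log2 fold change (horizontal axis) with its 95% interval for the 7 ligand genes tested, in 8 comparisons with the first-named genotype over the second; red marks an adjusted p under 0.05 in edgeR's test over all genes. Filled points are seen for Cd86 in the comparisons with Tbk1het below it and in the interaction, for Cd274 in 3 comparisons with Tbk1het Tak1het, and for Tnfsf9 in Tbk1het Tak1het over Tak1het.

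Within Tbk1het the ligand genes divided the libraries. Cd83 encodes a surface protein of mature antigen-presenting cells that keeps MHC class II and CD86 at the surface, and CD40 receives the signal of CD40 ligand on activated T cells. Cd83 was 230, 534 and 177 CPM in Tbk1het replicates 1, 2 and 3, against 314, 253 and 314 CPM in WT. Cd40 was 1.59, 8.28 and 3.18 CPM in Tbk1het, against 3.93, 7.19 and 4.87 CPM in WT. Replicate 2, with the lowest Cd86 of Tbk1het, thus had the highest Cd83 of all 18 libraries and the highest Cd40 of Tbk1het, whereas replicates 1 and 3 had Cd83 below every WT library. Over all 3 Tbk1het libraries the log2 fold change of Cd83 against WT was 0.10 (95% interval -0.45 to 0.64). Without replicate 2 it was -0.53 (SE 0.136) and was called (edgeR adjusted p = 0.0471), and that of Cd40 was -1.16 (SE 0.505, edgeR adjusted p = 0.278). Leaving out the library with the highest Cd83 lowers the Cd83 value by itself, so this call is no support for lower Cd83 in Tbk1het. The same leave-out raised the calls over all genes from 7 to 371.

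The proliferation gene Mki67 went with Cd86 in these libraries, at 70.9, 15.4 and 61.1 CPM in Tbk1het and 1.27, 2.14 and 1.19 CPM in Tbk1het Tak1het, against 19.8, 22.6 and 7.89 CPM in WT. Among all genes tested, those whose log2(CPM + 1) followed Cd86 most closely over the 18 libraries were Cenpa, which encodes the histone H3 variant of centromeres (Pearson r 0.941, Spearman rho 0.752), Procr, the protein C receptor gene (0.931 and 0.831), and Prr13 (0.929 and 0.571). Those closest to Cd274 were Atf4, the transcription factor of the integrated stress response (0.942 and 0.882), Slc3a2, a subunit of amino acid transporters (0.928 and 0.891), and Jun, a subunit of AP-1 (0.888 and 0.874). These values describe 18 libraries that share genotypes and preparation. The part of proliferating cells in the level of Cd86 was not tested.

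**Figure D3:**
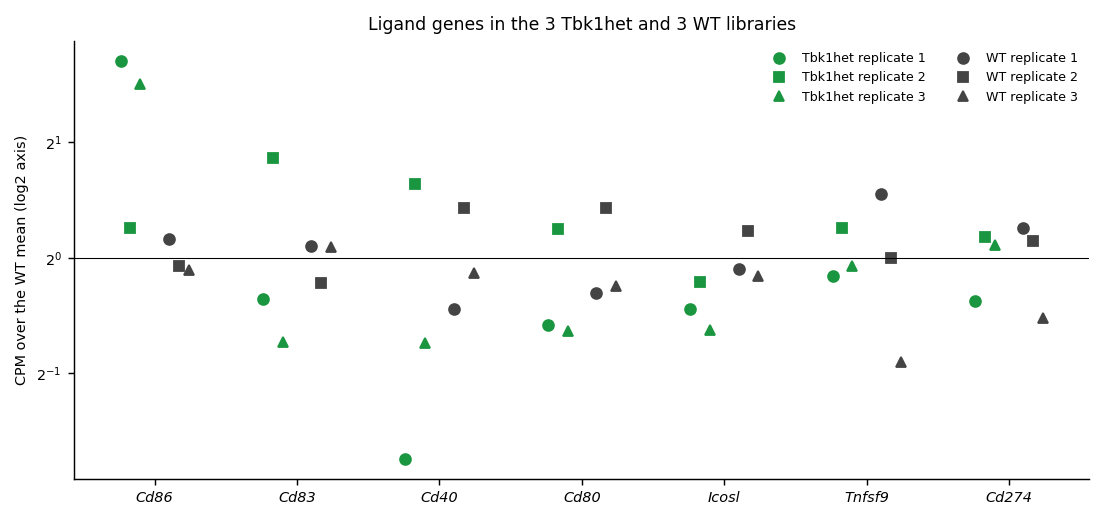
CPM of the 7 ligand genes tested in each Tbk1het and WT library, divided by the WT mean of the gene (log2 axis, line at the WT mean); symbols give the replicate. Tbk1het replicate 2 lies apart from replicates 1 and 3 for Cd86, Cd83 and Cd40.

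The mitochondrial share of counts also differed between genotypes. It was 0.463 ± 0.0824% in Tbk1het Tak1het and 2.01 ± 0.191% in Tbk1het, against 1.24 ± 0.499% in WT. The 4 libraries of other genotypes with a share as low as in Tbk1het Tak1het (0.370 to 0.453%) had 12.1 to 28.1 CPM of Cd274, below all 3 Tbk1het Tak1het libraries, and 38.4 to 51.5 CPM of Cd86, a range that holds all 3. With the share as a covariate, Cd274 in Tbk1het Tak1het against WT was 1.14 (edgeR adjusted p = 0.0656), and Cd86 in Tbk1het Tak1het against Tbk1het was -1.31 (edgeR adjusted p = 0.0599). Cd274 in the libraries labelled Tbk1het Tak1het Ripk1het against Tbk1het Tak1het remained called with the covariate (edgeR adjusted p = 0.0363). Every library of Tbk1het had a higher share than every other library, so share and genotype cannot be told apart there.

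Tnfsf9 encodes 4-1BB ligand, a member of the tumour necrosis factor family that costimulates T cells through 4-1BB. It is on chromosome 17 at 57105325 to 57107757 (plus strand). Its level was 3.18, 0.789 and 3.48 CPM in Tbk1het Tak1het, from 60, 7 and 70 counts. It was 8.75, 9.67 and 6.86 CPM in Tak1het, 4.48, 6.00 and 4.78 CPM in Tbk1het, and 7.34, 5.01 and 2.67 CPM in WT. Every Tbk1het Tak1het library lay below every Tak1het and Tbk1het library, but WT replicate 3 lay within the range of Tbk1het Tak1het. Tnfsf9 fell in Tbk1het Tak1het against Tak1het, with a log2 fold change of -1.72 (SE 0.435, 0.304-fold, edgeR adjusted p = 0.0389), the only ligand gene of 7 called there, where 2.92% of all genes were called. The astrocyte marker Gfap, at most 3.87 CPM in any library, rose there too (edgeR adjusted p = 0.0221), and its part was not tested. The 7 astrocyte markers tested had a median of 0.46, with 4 above 0. The call of Tnfsf9 was lost without any one of the 6 libraries compared (edgeR adjusted p 0.0560 to 0.133), within a range of 0.00325 to 0.152 over 16 alternatives. Transcripts of 4 Y-linked genes summed to 84.7, 89.9 and 68.1 CPM in Tbk1het Tak1het, against 2.78, 0 and 0 CPM in Tak1het, so sex and genotype cannot be told apart between these 2 genotypes, for Cd274 as well. The sum was at 0 in WT replicate 3 only among WT libraries, and that library had the lowest Tnfsf9 of WT; all 3 Tbk1het libraries held such transcripts. The unstranded reads of Tnfsf9 cannot be told apart from those of the antisense gene Gm11110, which was given 6 to 7 counts in Tbk1het Tak1het and 30 to 46 in Tak1het.

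In other comparisons Tnfsf9 was not called. Its log2 fold change in Tbk1het Tak1het was -0.96 against WT (edgeR adjusted p = 0.215) and -0.99 against Tbk1het (edgeR adjusted p = 0.138). In the libraries labelled Tbk1het Tak1het Ripk1het it was 6.46, 9.07 and 5.65 CPM, all above Tbk1het Tak1het, by 1.46 (SE 0.434, edgeR adjusted p = 0.0872, called by DESeq2 at 0.0188). Those labelled Tbk1het Ripk1hom gave 5.48, 6.66 and 5.26 CPM. The interaction was -1.74 (SE 0.603, edgeR adjusted p = 0.147).

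The remaining ligand genes were low or variable, and edgeR called none of them in any comparison over all 18 libraries. Cd80, the second CD28 ligand, shares chromosome 16 with Cd86, 1789480 bases away. It was 2.10, 0.703 and 1.17 CPM in Tak1het, against 2.34, 3.89 and 2.44 CPM in WT. All Tak1het libraries were below all WT libraries, and the log2 fold change was -1.12 (SE 0.515) with an adjusted p of 0.503 by edgeR, in a comparison where none of the 7 ligand genes and 0.0149% of all genes were called. In the other genotypes Cd80 was 1.30 to 3.43 CPM, each overlapping WT. Cd86 therefore differed between Tbk1het Tak1het and Tbk1het with a call while Cd80 was 2.15 ± 0.896 CPM in Tbk1het Tak1het and 2.40 ± 0.886 CPM in Tbk1het.

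Icosl, whose product binds the inducible costimulator ICOS, varied most in the libraries labelled Tbk1het Ripk1hom, at 11.9, 1.39 and 9.13 CPM, against 5.06, 6.36 and 4.87 CPM in WT. The lowest and highest values of the series thus belonged to 1 genotype, and the low one, replicate 2, was the library whose Tbk1 level was 54.9 CPM. In Tak1het Icosl was 3.51, 10.5 and 5.15 CPM, and the other genotypes lay between 3.04 and 6.42 CPM. Cd40 likewise ranged from 2.87 to 10.1 CPM within Tak1het and from 4.44 to 8.70 CPM within Tbk1het Ripk1hom, and was 5.04, 6.99 and 5.77 CPM in Tbk1het Tak1het. Cd83 was steady outside Tbk1het, at 296 to 397 CPM in the other 4 mutant genotypes, against 253 to 314 CPM in WT. Its mean was 368 ± 34.1 CPM in Tbk1het Tak1het and 294 ± 35.3 CPM in WT (edgeR adjusted p = 0.529).

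Genes that work with these ligands were read from lists chosen with earlier results known. In Tbk1het Tak1het against WT the median log2 fold change was -0.30 over the 7 ligand genes, against 0.0038 over all genes tested. Of 20 further ligands of T-cell costimulation and coinhibition, 12 were tested, with a median of -0.29. Of these, 2 were called, both lower, where 6.43% of all genes were called. Ceacam1, which encodes a ligand of TIM-3, was 1.06, 2.48 and 3.48 CPM in Tbk1het Tak1het, against 6.96, 8.43 and 5.80 CPM in WT (-1.59, SE 0.408, edgeR adjusted p = 0.0268), a call lost without WT replicate 1 or 2 or Tbk1het Tak1het replicate 1 or 2 (0.0610 to 0.109, and 0.00294 to 0.161 over 16 alternatives). Tnfsf8, the gene of CD30 ligand, had 0 counts in the 3 Tbk1het Tak1het libraries, against 44, 24 and 6 counts in WT, at least 7.03-fold lower from a floor of 3 counts per library (edgeR adjusted p = 0.0126, and 0.0586 without Tbk1het Tak1het replicate 3, in a range of 4.51e-05 to 0.0961 over 14 alternatives). Without WT replicate 1, which held 44 of these counts, the bound is 4.09-fold. Lgals9, which encodes another ligand of TIM-3, was not called against WT (0.43, edgeR adjusted p = 0.196).

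Of 7 genes of the interferon gamma receptor and PD-L1 transcription, all were tested, with a median of -0.0038, and edgeR called none in Tbk1het Tak1het against WT. Of all genes, 6.43% were called there. The transcription factor gene Irf1 had 47.3, 48.5 and 57.0 CPM in Tbk1het Tak1het, against 37.2, 29.7 and 35.6 CPM in WT (0.58, edgeR adjusted p = 0.229). The receptor gene Ifngr1 differed by -0.60 without a call (edgeR adjusted p = 0.0730). Isg15, an interferon-stimulated gene outside the lists that was chosen after its values were seen, was 26.1, 25.4 and 25.8 CPM in Tbk1het Tak1het, against 6.01, 4.12 and 5.45 CPM in WT. The 15 libraries of the other genotypes and WT lay between 1.88 and 6.31 CPM, all below Tbk1het Tak1het.

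Of 5 regulators of ligand protein at the surface, with a median of -0.26, 1 was called and fell, where 6.43% of all genes were called. March1 encodes a ubiquitin ligase that removes CD86 and MHC class II from the surface, and it was 13.3, 12.7 and 16.5 CPM in Tbk1het Tak1het, against 44.8, 32.5 and 24.2 CPM in WT (-1.25, SE 0.191, edgeR adjusted p = 0.00134), a call made in all 16 alternatives. Tbk1het had 44.0, 42.3 and 40.7 CPM of March1, so that Tbk1het, the genotype with the highest mean of Cd86, also had the highest mean of this regulator. The interaction of March1 was -1.11 (edgeR adjusted p = 0.0400), a call lost without WT replicate 2 or 3, Tbk1het replicate 1 or 3, Tak1het replicate 2 or 3 or any Tbk1het Tak1het library (0.0566 to 0.109) and made in 8 of 22 alternatives (up to 0.240, with the mitochondrial share as a covariate). Of the 10 genes of CD40 signalling none was called against WT (median 0.48, 7 of 10 above 0). Of the 8 MHC class II genes, 6 were tested and none was called in any comparison (median 0.24 in Tbk1het Tak1het against WT), with Cd74, the invariant chain gene, at most 13.2 CPM. Over these comparisons 0.0149% to 14.8% of all genes were called. H2-Eb1, H2-DMb2 and H2-Ab1 held 82, 202 and 255 counts over the 18 libraries, so their lack of a call says little.

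**Figure D4:**
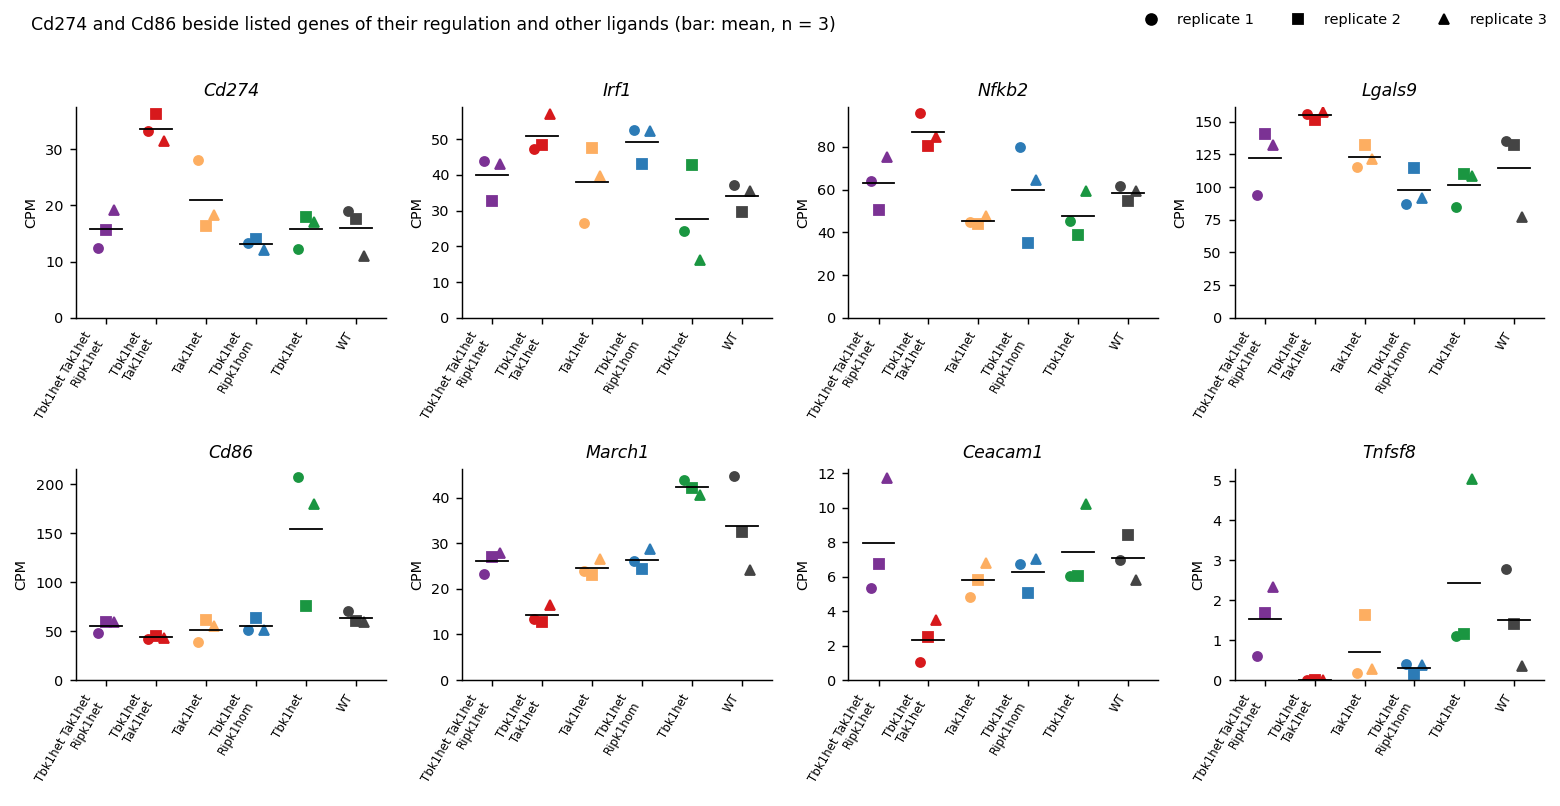
CPM of Cd274 and Cd86 and of 6 listed genes in every library, by genotype (linear axes from 0; bar, mean of 3 libraries). Cd274 is highest in the 3 Tbk1het Tak1het libraries, where March1 and Ceacam1 are lowest and Tnfsf8 is at 0.

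Against Tbk1het, the comparison with the most calls, the 12 other ligands tested had a median of 0.19, against 0.0067 over all genes. Of these 12, 3 were called, where 14.8% of all genes were called. Lgals9 rose (0.61, edgeR adjusted p = 0.0343), a call lost without Tbk1het replicate 1 or 3 or any Tbk1het Tak1het library (0.0638 to 0.167) and made in 11 of 16 alternatives. Ceacam1 fell (-1.66, edgeR adjusted p = 0.0107), a call lost without Tbk1het replicate 3 or Tbk1het Tak1het replicate 1 (0.0516 and 0.0508), and also once the share of mitochondrial counts was a covariate (0.266). Tnfsf8 fell at least 11.3-fold (edgeR adjusted p = 0.00333) and was called without any one of the 6 libraries, but not with the covariate (0.125). Its bound is 5.22-fold without Tbk1het replicate 3, which held 76 counts, against 23 and 20 in Tbk1het replicates 1 and 2. March1 fell (-1.57, edgeR adjusted p = 0.000153) in all 16 alternatives too. Irf1 rose (0.88, edgeR adjusted p = 0.0337), with the call made in 8 of 16 alternatives (highest adjusted p 0.329, with the covariate). It was lost in the same 5 leave-outs as for Lgals9 (0.0674 to 0.150). Of the CD40 signalling list Nfkb2, which encodes the p100 subunit of NF-kB, rose (0.86, edgeR adjusted p = 0.0150, lost without Tbk1het replicate 1 or 2 or Tbk1het Tak1het replicate 1 at 0.0545 to 0.0637, and with the covariate at 0.499).

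Against Tak1het, Nfkb2 rose in Tbk1het Tak1het (0.94, edgeR adjusted p = 0.0313) and lost the call without any one of the 6 libraries (0.0536 to 0.125) and with the covariate (0.201). In this comparison 2.92% of all genes were called. March1 (-0.79) and Tnfsf8 (at least 3.24-fold) fell, with edgeR adjusted p-values of 0.0319 and 0.0452, and both lost the call without Tak1het replicate 2 or 3 or any Tbk1het Tak1het library (0.0507 to 0.198). March1 was called in 8 of 16 alternatives and Tnfsf8 in 5 of 14 (highest adjusted p 0.145 and 0.298). Tak1het replicate 2 held 28 counts of Tnfsf8, against 4 in each of the other Tak1het libraries, and without it the bound is 1.06-fold. In the libraries labelled Tbk1het Tak1het Ripk1het against Tbk1het Tak1het, Tnfsf8 (at least 7.13-fold), Ceacam1 (1.76) and March1 (0.87) rose, with edgeR adjusted p-values of 0.0194, 0.0253 and 0.0178. Each of these 3 calls was lost without Tbk1het Tak1het replicate 1 or 2 or without replicate 2 or 3 labelled Tbk1het Tak1het Ripk1het, and that of Tnfsf8 also without Tbk1het Tak1het replicate 3 (0.0554 to 0.178). They were made in 8 of 14 alternatives for Tnfsf8, 8 of 15 for Ceacam1 and 10 of 15 for March1. Of all genes, 2.56% were called in that comparison. No listed gene was called in Tbk1het or Tak1het against WT or in the libraries labelled Tbk1het Ripk1hom against Tbk1het. Of all genes, 0.0521%, 0.0149% and 0.535% were called in these comparisons, in that order. The lack of calls in the lists is thus near the share over all genes.

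The receptors that these ligands meet were largely those of other cells. Ctla4, Pdcd1 and Cd40lg had 0 counts in all 18 libraries, and the T-cell markers Cd8b1 and Trac were likewise at 0, the 9 T-cell markers summing to 1.503 to 14.6 CPM with Cd4, which macrophages can express, the highest. Of the 7 counter-receptors listed, 3 were tested, and the only call among them between a pair of genotypes was Rgmb, a gene whose product binds PD-L2. It rose in Tbk1het Tak1het against Tbk1het (2.35, SE 0.504, edgeR adjusted p = 0.00457, and 0.299 with the covariate), where 14.8% of all genes were called. Rgmb was 42.7, 42.7 and 46.7 CPM in Tbk1het Tak1het, 11.0, 10.5 and 4.24 CPM in Tbk1het, and 21.8, 9.19 and 13.3 CPM in WT. Against WT it was not called in Tbk1het Tak1het (1.58, edgeR adjusted p = 0.0624) or in Tbk1het (-0.77, edgeR adjusted p = 0.631). Cd28, named after its values were seen, was 90.7 ± 15.96 CPM in Tbk1het Tak1het and 107 ± 56.9 CPM in Tbk1het, against 129.9 ± 34.5 CPM in WT. This gene of the receptor for CD80 and CD86 was measured in every library, between 48.1 and 164 CPM.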

How the data were processed

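Smart-seq2 libraries were made from 1 ng of RNA with 12 amplification cycles and read as pairs of 50 bases, per the labels' protocols, without strand marking or molecular identifiers. The deposited values are whole-number read counts for each gene, which the authors made with STAR and featureCounts on mm10, per the submitters' processing notes. The labels' protocol names RSEM instead. Versions, annotation and strand setting are not given in the sources used here.

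The 50686 identifiers were matched to symbols of GENCODE M21 (GRCm38), which gave 50376 matches. The filter filterByExpr over the 6 genotypes left 13447 genes. In R 4.3.3, edgeR 4.0.16 scaled the counts by TMM and fitted all 18 libraries with 1 term per genotype (robust quasi-likelihood test), with Benjamini-Hochberg adjustment over all genes tested. CPM were computed from the TMM-scaled library totals, and exon lengths are merged exons. Depth limits the precision of low genes, and a library without counts was held to a floor of 3 counts.

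The ligand genes, the lists and the tests were chosen with earlier results of these data known. From the list of the interferon gamma receptor and PD-L1 transcription 1 gene, and from the cell-type markers 1 gene, are not reported here. Named were all 8 ligand genes, Tbk1, Map3k7 and Ripk1 as checks of the labels, listed genes that were called (up to 4 per list and comparison), and the 3 genes most correlated with each ligand gene called in the overall test. Mki67, Cd28, Cd74, Irf1, Lgals9, Ifngr1, Isg15 and the other markers that were called in a comparison of the text were also named after their values were seen. Same-numbered libraries of different genotypes did not deviate together (median r -0.0075, range -0.239 to 0.221 over 45 pairs), so the fit has no replicate block. Alternatives used DESeq2 1.42.0, limma-voom (limma 3.58.1), other scaling, filters and samples, and covariates.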

Additional observations from a re-analysis of the deposited data

Results flagged for a closer look

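The response of Cd86 to both alleles together differed from the sum of the responses to each. The interaction of Tbk1het and Tak1het was -1.52 on the log2 scale (SE 0.361, adjusted p = 0.0379 by edgeR's quasi-likelihood test over all genes). Mean Cd86 was 43.5 ± 1.61 CPM in Tbk1het Tak1het, 51.3 ± 11.6 CPM in Tak1het and 154 ± 69.4 CPM in Tbk1het, against 63.4 ± 6.49 CPM in WT (SD, n = 3). The call was lost without any one of 10 of the 12 libraries compared, and was made without Tbk1het replicate 2, at 75.6 CPM, or Tak1het replicate 1. Over the 22 alternatives run it was made in 7, with adjusted p-values up to 0.366 (the mitochondrial share as a covariate). The value rests on the 3 Tbk1het libraries, in which the mitochondrial share of counts (1.82 to 2.20%) was above that of all other libraries. Share and genotype cannot be told apart there, also in the fit with the share as a covariate. The parts of Mki67, which was high in Tbk1het replicates 1 and 3, and of sex were not tested.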

How the results depend on the processing

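Of the single-gene values recomputed under each alternative, 510 stayed on the same side of the threshold, 159 lost a call and 10 gained one, and none changed direction. These were ligand genes with an unadjusted p under 0.05 and other listed genes already called. A value already called could only keep or lose its call, so losses and gains are not comparable. The calls of Cd83 without Tbk1het replicate 2 are not among the 10. With the mitochondrial share of counts as a covariate, 0 ligand genes were called in the overall test (2 as reported), in Tbk1het Tak1het against WT (1), Tbk1het (2) and Tak1het (1), in the libraries labelled Tbk1het Ripk1hom against Tbk1het (1) and in the interaction (1). DESeq2 called 1 ligand gene in Tbk1het against WT (0 as reported) and 2 in the libraries labelled Tbk1het Tak1het Ripk1het against Tbk1het Tak1het (1), as did edgeR without the low-count filter, which also called 2 in Tbk1het Tak1het against WT. Limma-voom and the replicate block each called 0 in Tbk1het Tak1het against Tak1het and 0 in the interaction, where numbers in the labels are not known to pair libraries. A fit of only the libraries compared called 2 in Tbk1het Tak1het against WT and 0 in Tbk1het Tak1het against Tak1het, in Tbk1het Ripk1hom against Tbk1het and in the interaction. Without the 5 libraries labelled Tbk1+/- whose Tbk1 was near WT, these last 3 comparisons also gave 0. Tbk1het Ripk1hom then has a lone library, assumed to vary like the others, and the comparison of Tbk1het Tak1het Ripk1het cannot be made.

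Leaving out each library in turn gave 1 to 3 ligand genes in the overall test, 0 to 2 in Tbk1het against WT, 0 in Tak1het against WT, 0 to 1 in Tbk1het Tak1het against WT, 2 to 3 against Tbk1het and 0 to 1 against Tak1het. It gave 0 to 2 in Tbk1het Ripk1hom against Tbk1het, 0 to 1 in Tbk1het Tak1het Ripk1het against Tbk1het Tak1het and 0 to 2 in the interaction. Leaving out Tbk1het replicate 2 gave the highest number wherever it was compared, and calls over all genes rose as well. The overall test went from 1021 to 1414, Tbk1het against WT from 7 to 371, and Tbk1het Tak1het against Tbk1het from 1995 to 2255. Over all genes, the overall test called 1021, against 2277 with DESeq2, 2850 without the filter and 225 with the covariate. Tbk1het Tak1het against WT called 864, against 1421, 1404 and 228, and 1385 from only the libraries compared. The causes of these differences were not tested. Without robust dispersion, chosen after seeing the data, the same ligand genes were called in all comparisons. Depth limits Cd80, Icosl, Cd40 and Tnfsf9, which had under 15 CPM in every library.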
